A study of Homo sapiens with 6 samples.

Results

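The proteasome is the large protease that removes ubiquitin-tagged proteins from the cytosol and nucleus. Its 20S core is a barrel of outer alpha and inner beta rings with the active sites inside, and its 19S cap holds a base of ATPases that unfold the substrate and a lid that removes the ubiquitin. Dedicated chaperones build both parts, and cytokine-induced beta subunits can replace the catalytic ones to form the immunoproteasome. In many cells the subunit genes are transcribed as a group under the factor NFE2L1, also called NRF1.

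The genes described here are the 50 protein-coding rows of the deposited count table whose symbol begins with PSMA to PSMG followed by a digit, of 30403 rows in all. They hold 48 symbols, since PSMA1 and PSMA2 each stand on 2 Ensembl identifiers. The symbol pattern asks for no value, but a gene had to be listed in the authors' table of expressed genes, and the group was proposed with results of this comparison known. Calls and fold changes below are therefore descriptions of these libraries and not independent evidence about the group. By role, the rows fall into 9 for the alpha ring, 7 for the constitutive beta ring, 4 for inducible or tissue-specific beta subunits, 6 for ATPases of the 19S base, 3 for other base subunits, 8 for the lid, 3 for base chaperones, 4 for 20S chaperones and 5 for activators and the regulator PI31. The remaining row, PSMC3IP, is a recombination cofactor that carries the name only because it binds PSMC3. PSMA8, a testis form of an alpha subunit, was not analysed here.

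RNA came from HK-2 cells, an immortalised line from human proximal tubule epithelium, 48 h after transfection. One group of 3 libraries received a plasmid for an shRNA against PARP1 (shPARP1), and the other group of 3 received a control shRNA plasmid (shCtrl). The PARP1 protein attaches poly(ADP-ribose) to nuclear proteins, chiefly at DNA breaks. Both groups were transfected with Lipofectamine and grown in serum-containing medium. Transfection was transient, so that cells that took up no plasmid can be part of each library. In bulk RNA, a change in a few cells and a smaller change in all cells cannot be told apart. Whether replicates were grown as separate cultures is not stated. The p-values therefore measure no more than library-to-library spread, which can be technical.

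PARP1 itself had 886, 807 and 858 counts in shPARP1 libraries, against 6275, 6827 and 6726 counts in shCtrl libraries. Library totals ranged from 29387853 to 32809303 counts in shPARP1 and from 24429683 to 26269194 counts in shCtrl, so that every knockdown library was the deeper one. At this depth 3 counts, taken here as the detection floor, stand for 0.0911 to 0.101 CPM (counts scaled by the TMM-adjusted library size) in shPARP1 libraries and 0.115 to 0.125 CPM in shCtrl libraries. Of the proximal tubule markers, PAX8, GGT1 and CDH6 were well expressed, while LRP2, CUBN, HNF4A and ANPEP lay at or below 0.501 CPM in each library. The 11 markers summed to 923 to 945 CPM in shPARP1 and to 1343 to 1361 CPM in shCtrl. Leukocytes use the immunoproteasome heavily. Their markers CD3E and LYZ had at most 0.292 CPM in any library. The mean of CD68 was 8.29 CPM in shPARP1 and 6.50 CPM in shCtrl, and that of CD14 was 2.72 CPM in shPARP1 and 8.14 CPM in shCtrl. Of the 6 leukocyte genes listed, PTPRC matched no row. The 5 others together had 10.95 to 11.4 CPM in shPARP1 and 13.95 to 15.5 CPM in shCtrl. Of the tubule markers tested, 6 of 7 were called lower at an edgeR adjusted p under 0.05. Of the leukocyte genes tested, CD68 was called higher and CD14 lower. Over all genes tested, 27.3% were called higher and 28.5% lower. The part of these shifts in the results below was not tested.

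Transcripts of the proteasome rose after PARP1 knockdown across nearly all its parts. Of the 49 rows that passed the filter on low counts, 44 were called higher in shPARP1 and 0 lower, at an adjusted p under 0.05 in edgeR's quasi-likelihood test over 16040 genes. Over all genes tested, 55.7% were called, 27.3% higher and 28.5% lower. The members were chosen with this contrast known, so nothing is read from the gap between those shares. At an unadjusted p under 0.05, 0 of the 49 rows stood lower in edgeR, and DESeq2 and limma also called 0 lower. The 5 rows without a call were PSMA6, PSMB9, PSMD5, PSMG2 and PSMC3IP. The median log2 fold change of the 49 rows was 0.55, a 1.46-fold rise, with quartiles of 0.39 and 0.68, against a median of -0.01 and quartiles of -0.35 and 0.32 over all genes. For 23 rows the fold reached 1.5, which 11.0% of all genes did, and for 1 row, PSMC3, it reached 2, as for 2.57% of all genes. CPM ranges of the groups lay apart with shPARP1 above for 46 rows, against 29.7% of all genes, and with shPARP1 below for 1 row, against 30.4%.

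**Figure D1:**
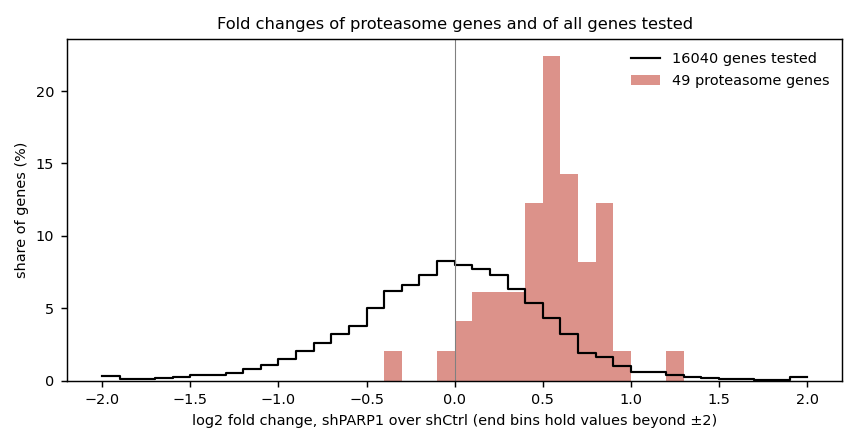
Share of genes (%) by log2 fold change of shPARP1 over shCtrl in steps of 0.1, for the 49 proteasome rows tested (bars) and the 16040 genes tested (line). The bars centre on 0.55, and all but 2 stand above 0.

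The 50 rows together held 7374, 7299 and 7355 CPM in shPARP1 libraries, against 4975, 4989 and 4956 CPM in shCtrl libraries. The sum was thus 1.48-fold higher in shPARP1, with 7342 ± 39.3 CPM in shPARP1 and 4973 ± 16.5 CPM in shCtrl (SD, n = 3 each). Measured library by library against the shCtrl mean, the median row stood at 0.53, 0.56 and 0.57 log2 units in the 3 shPARP1 libraries. With all libraries thinned to the smallest total, 44 of 49 rows were again called higher. With an offset for gene length and GC content the count was 43 and the median 0.53. The rows' merged exons had a median length of 3356 bases against 4491 over all genes tested, and GC contents of 47.9% against 49.1%. Across the 49 rows the fold change had a Spearman rho of -0.06 with exon length, 0.02 with GC content and 0.18 with mean CPM. Over 15914 tested genes with a length and GC content, rho was -0.20, -0.06 and 0.03 in the same order. These are descriptions of rows that share the same libraries.

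**Figure D2:**
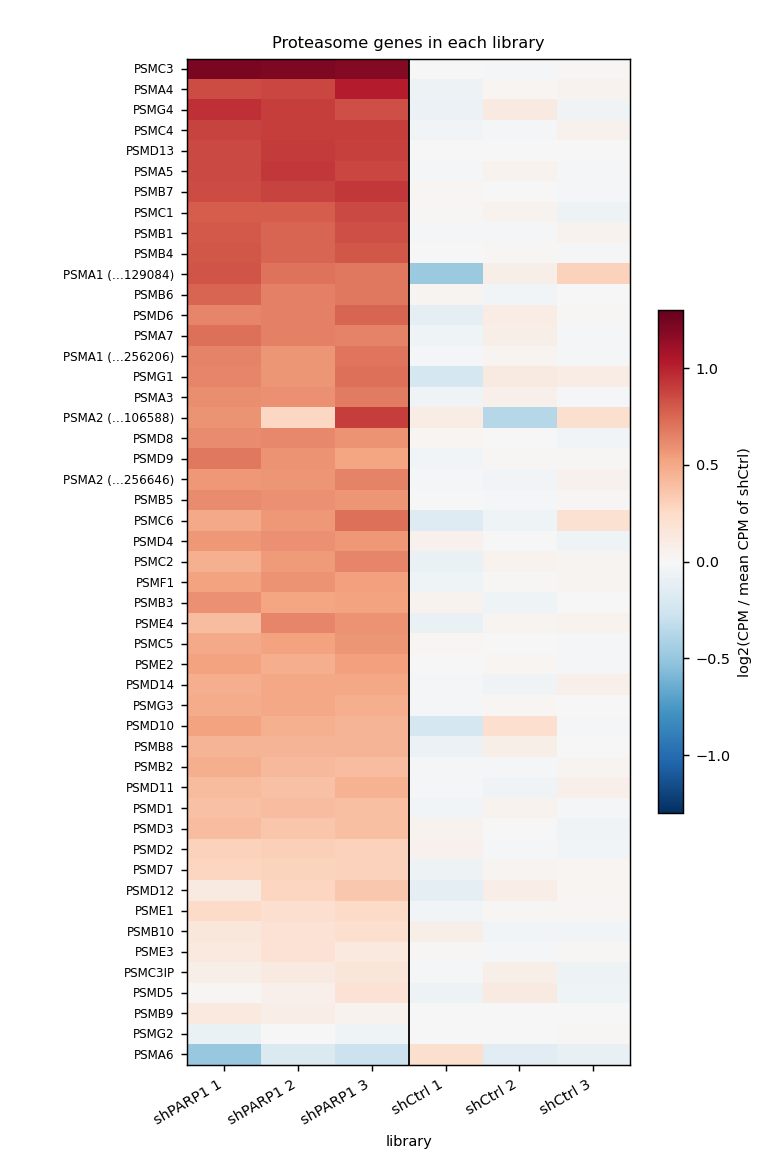
Each row is a proteasome gene and each column a library, coloured by log2 of its CPM over the shCtrl mean, with shPARP1 libraries on the left. The 3 shPARP1 columns are red for nearly all genes, strongest for PSMC3, and shift to pale or blue only in the last rows, among them PSMG2 and PSMA6.

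The ATPases of the 19S base, a ring that unfolds substrates and opens the 20S gate, held the largest rise. All 6 were called higher, beside 27.3% of all genes, with log2 fold changes from 0.53 to 1.21 and a median of 0.70. PSMC3, the ATPase RPT5 (chromosome 11, 47418769 to 47426473, minus strand, GRCh38), had 229, 228 and 225 CPM in shPARP1 libraries, against 98.4, 97.6 and 99.4 CPM in shCtrl libraries. Its 3 shPARP1 values stood more than 2-fold above every control value, and within a group they differed by only a few CPM. The log2 fold change was 1.21 (SE 0.04, edgeR adjusted p = 5.46e-34). PSMC4, the ATPase RPT3 on chromosome 19, had 181, 183 and 184 CPM in shPARP1 libraries, against 96.0, 97.02 and 102 CPM in shCtrl libraries. The groups lay far apart, with a log2 fold change of 0.89 (SE 0.04). PSMC1 (RPT2) followed at 0.81, while PSMC6 (RPT4), PSMC2 (RPT1) and PSMC5 (RPT6) rose by 0.59, 0.55 and 0.53 on the log2 scale. PSMC1 shares 75.8% of its annotated exon bases with NRDE2 on the opposite strand, and PSMC5 shares 19.5% with FTSJ3. NRDE2 (0.12) and FTSJ3 (0.09) were not called.

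The bases upstream of PSMC3 are printed as those of the member that rose most. They lie at chr11:47426440-47426689 on the minus strand (RefSeq, GRCh38.p14) and hold a single CCAAT box, in capitals.

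PSMC3 upstream: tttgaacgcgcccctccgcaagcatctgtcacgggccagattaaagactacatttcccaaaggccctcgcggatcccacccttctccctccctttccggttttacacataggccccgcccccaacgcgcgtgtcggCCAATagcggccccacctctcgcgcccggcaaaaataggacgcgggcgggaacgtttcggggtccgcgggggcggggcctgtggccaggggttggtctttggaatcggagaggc

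The constitutive beta ring carries the 3 protease activities. All 7 of its genes were called higher, beside 27.3% of all genes. They rose between 0.43 and 0.88 on the log2 scale, with a median of 0.70. PSMB7, the trypsin-like beta2, had 346, 352 and 364 CPM in shPARP1 libraries, against 195, 193 and 188 CPM in shCtrl libraries, a log2 fold change of 0.88 (SE 0.04). PSMB6, the caspase-like beta1, had 269, 249.7 and 255 CPM in shPARP1 libraries, against 162, 155 and 158 CPM in shCtrl libraries (0.70, SE 0.04). PSMB5, the chymotrypsin-like beta5 that proteasome inhibitor drugs bind, had 264, 260.1 and 257 CPM in shPARP1 libraries, against 172, 171 and 174 CPM in shCtrl libraries (0.60, SE 0.04). For each catalytic gene the lowest shPARP1 library was well above the highest shCtrl library. The structural subunits PSMB1 (0.80), PSMB4 (0.79), PSMB3 (0.54) and PSMB2 (0.43) rose too.

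The alpha ring forms the gate of the core. Of its 9 rows, 8 were called higher, beside 27.3% of all genes. At the top was PSMA4, the alpha3 subunit whose tail helps close the gate. It had 72.0, 72.7 and 80.7 CPM in shPARP1 libraries, against 38.1, 40.5 and 41.1 CPM in shCtrl libraries, a log2 fold change of 0.91 (SE 0.05). PSMA5 (alpha5, 0.88), PSMA7 (alpha4, 0.67) and PSMA3 (alpha7, 0.62) also rose. PSMA7 was the most abundant of the ring, with 537 ± 15.9 CPM in shPARP1 and 337 ± 16.3 CPM in shCtrl (SD, n = 3 each).

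Rows of overlapping gene models make PSMA1, PSMA2 and PSMA6 less certain. The PSMA1 row ENSG00000256206 had 57.9 ± 2.40 CPM in shPARP1 and 37.2 ± 0.896 CPM in shCtrl (log2 fold change 0.64), and the row ENSG00000129084 had 12.9 ± 0.637 CPM in shPARP1 and 7.74 ± 2.004 CPM in shCtrl (0.74). The models share 814 exon bases, and GENCODE release 29 names the one with more reads AC018523.2, which also overlaps COPB1. For PSMA2, the model with more reads, ENSG00000256646, is named AC010132.3 there. It shares 64.7% of its exon bases with C7orf25 on the same strand. C7orf25 had 4.96 ± 1.09 CPM in shPARP1 and 3.68 ± 1.16 CPM in shCtrl (log2 fold change 0.42). The PSMA2 row ENSG00000256646 had 84.2 ± 2.69 CPM in shPARP1 and 55.6 ± 1.78 CPM in shCtrl (0.60), against 1.97 ± 0.432 CPM in shPARP1 and 1.29 ± 0.259 CPM in shCtrl for ENSG00000106588 (0.61). The call of this last row (edgeR adjusted p = 0.0315) was lost when shPARP1 replicate 1 (0.0632), shPARP1 replicate 3 (0.209) or shCtrl replicate 2 (0.134) was left out, and also in DESeq2 (0.0713), without the filter on low counts (0.05004) and against a 1.2-fold minimum (0.0906).

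PSMA6, the alpha1 subunit, was the only row whose shPARP1 libraries all lay below those of the control. It had 104, 120 and 109 counts in shPARP1 libraries, against 123, 105 and 108 counts in shCtrl libraries, or 3.16, 3.89 and 3.66 CPM in shPARP1 and 5.14, 4.05 and 4.15 CPM in shCtrl. The difference was not called (log2 fold change -0.32, SE 0.16, edgeR adjusted p = 0.0849). Among the alpha rows only the PSMA2 row ENSG00000106588 had fewer CPM. The model RP11-561B11.2 (ENSG00000258790, AL121594.1 in GENCODE release 29) shares 919 exon bases with PSMA6 on the same strand of chromosome 14. That row held 4129, 4005 and 4043 counts in shPARP1 libraries, against 2411, 2693 and 2802 counts in shCtrl libraries, and was called higher (log2 fold change 0.32, SE 0.04), though not against a 1.2-fold minimum (edgeR adjusted p = 0.0655). The CPM of both rows together were 128, 134 and 139 in shPARP1 libraries, against 106, 108 and 112 in shCtrl libraries. How the reads of the shared exons were assigned is not given in the sources used here, so the direction of PSMA6 itself cannot be read from its own row.

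The bases upstream of a PSMA6 start are printed as those of the member with the lowest fold change. They lie at chr14:35292067-35292316 on the plus strand (RefSeq, GRCh38.p14) and hold neither a CCAAT box nor the antioxidant response motif described below, so no capitals appear.

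PSMA6 upstream: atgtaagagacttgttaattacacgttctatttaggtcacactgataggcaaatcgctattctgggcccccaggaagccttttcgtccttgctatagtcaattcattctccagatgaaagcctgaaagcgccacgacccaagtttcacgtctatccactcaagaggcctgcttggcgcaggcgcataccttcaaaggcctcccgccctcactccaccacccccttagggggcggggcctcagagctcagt

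The other base subunits and the lid rose as well. PSMD4 (RPN10, a ubiquitin receptor) rose by 0.57, PSMD1 (RPN2, a scaffold) by 0.39 and PSMD2 (RPN1, the other scaffold) by 0.30 on the log2 scale. PSMD2 had the highest CPM of any row, 775 ± 3.26 in shPARP1 and 629 ± 22.1 in shCtrl (SD, n = 3 each). All 8 lid genes were called higher, beside 27.3% of all genes, with a median of 0.45 and a span from 0.25 to 0.88. PSMD13 (RPN9) had 133, 138 and 136 CPM in shPARP1 libraries, against 73.7, 73.2 and 73.7 CPM in shCtrl libraries, a log2 fold change of 0.88 (SE 0.04). Its control values were almost equal and the groups lay far apart. PSMD6 (RPN7, 0.68), PSMD8 (RPN12, 0.61) and PSMD14 (RPN11, the deubiquitinase of the lid, 0.49) rose next. PSMD11 (RPN6, 0.41), PSMD3 (RPN3, 0.39), PSMD7 (RPN8, the partner of RPN11, 0.29) and PSMD12 (RPN5, 0.25) rose least. The call of PSMD12 ended without shPARP1 replicate 3 (edgeR adjusted p = 0.0510), and against a 1.2-fold minimum those of PSMD12 (0.524), PSMD7 (0.236) and PSMD2 (0.0947) ended.

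Taking the 33 rows of the constitutive particle as a whole, 32 were called higher, beside 27.3% of all genes, with a median of 0.61. Differences in fold change between its parts were not tested. Summed CPM were 1.79-fold higher in shPARP1 than in shCtrl for the ATPases, 1.624-fold for the alpha ring, 1.59-fold for the constitutive beta ring, 1.41-fold for the lid and 1.28-fold for the other base subunits.

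**Figure D3:**
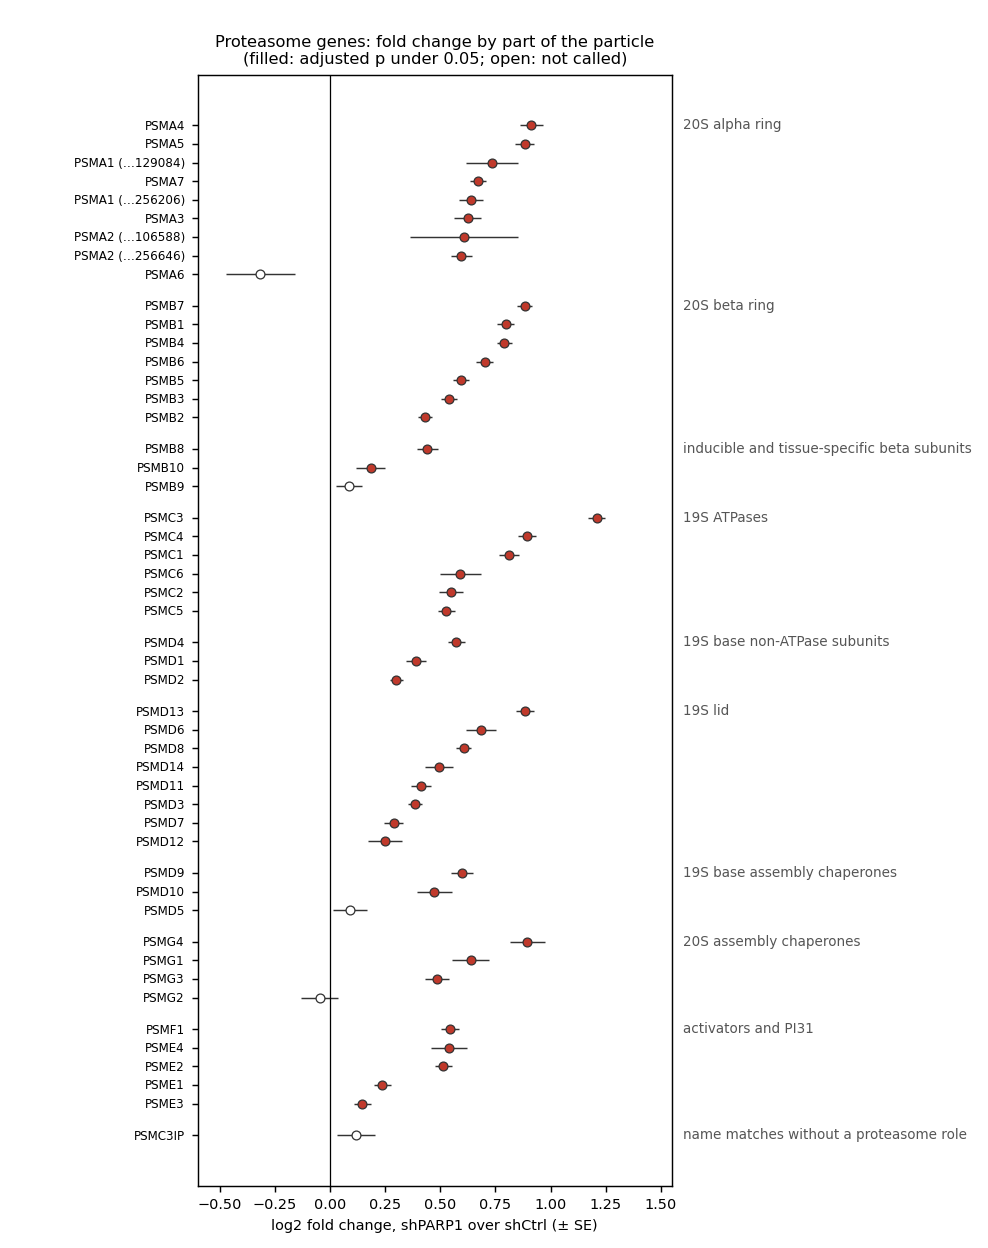
Log2 fold change of shPARP1 over shCtrl with its SE for each of the 49 rows tested, grouped by part of the particle and ordered within it, with digits in parentheses giving the end of the Ensembl identifier. Filled points passed an adjusted p under 0.05; the 5 open points are PSMA6, PSMB9, PSMD5, PSMG2 and PSMC3IP, and PSMC3 lies farthest to the right at 1.21.

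The inducible beta subunits, which replace the catalytic ones in the immunoproteasome, differed among themselves. PSMB8 (beta5i) had 87.1, 86.8 and 87.2 CPM in shPARP1 libraries, against 60.9, 67.4 and 63.7 CPM in shCtrl libraries. It was higher in each shPARP1 library and was called (log2 fold change 0.44, SE 0.05). PSMB9 (beta1i) had 42.6, 41.5 and 40.3 CPM in shPARP1 libraries, against 39.3, 39.0 and 38.9 CPM in shCtrl libraries. Its ranges lay just apart and it was not called (0.09, SE 0.06, edgeR adjusted p = 0.207). PSMB10 (beta2i) had 33.3, 34.2 and 35.1 CPM in shPARP1 libraries, against 31.7, 29.3 and 29.4 CPM in shCtrl libraries, a small called rise (0.18, SE 0.06, edgeR adjusted p = 0.0126). That call ended with the length and GC offset (0.08, edgeR adjusted p = 0.239), against a 1.2-fold minimum (0.900) and on leaving out shPARP1 replicate 3 (0.0582). A model on the same strand, CTC-479C5.12, shares 644 exon bases with PSMB10 and had 70.7 ± 1.46 CPM in shPARP1 and 46.5 ± 2.68 CPM in shCtrl (log2 fold change 0.61). The CPM of both rows together were 105 ± 1.16 in shPARP1 and 76.6 ± 4.03 in shCtrl. How reads of the shared exons were assigned is not given, so the level and fold change of PSMB10 itself are uncertain. PSMB11, the thymus beta5t, had 0, 2 and 0 counts in shPARP1 libraries, against 0, 0 and 0 counts in shCtrl libraries. It was below the floor of 3 counts in each library and was not tested.

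Set against its constitutive counterpart per length (FPKM, a fragment count scaled to transcript length and library size), each inducible gene held a smaller share in shPARP1. PSMB9 stood at 14.98%, 15.7% and 14.97% of PSMB6 in shPARP1 libraries, against 22.9%, 23.8% and 23.2% in shCtrl libraries. PSMB10 stood at 7.73%, 7.81% and 7.76% of PSMB7 in shPARP1 libraries, against 13.05%, 12.2% and 12.6% in shCtrl libraries. This share is uncertain too, because of the exons that PSMB10 shares with CTC-479C5.12. PSMB8 stood at 31.2%, 31.5% and 32.1% of PSMB5 in shPARP1 libraries, against 33.5%, 37.3% and 34.7% in shCtrl libraries. The ranges of the 3 shares did not overlap between groups; the shares come from the same comparison as the fold changes and were not tested. The 3 inducible genes summed to 116 ± 0.127 FPKM in shPARP1 and 94.2 ± 2.33 FPKM in shCtrl, and PSMB5, PSMB6 and PSMB7 to 747 ± 7.66 FPKM in shPARP1 and 430.1 ± 3.23 FPKM in shCtrl (SD, n = 3 each).

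**Figure D4:**
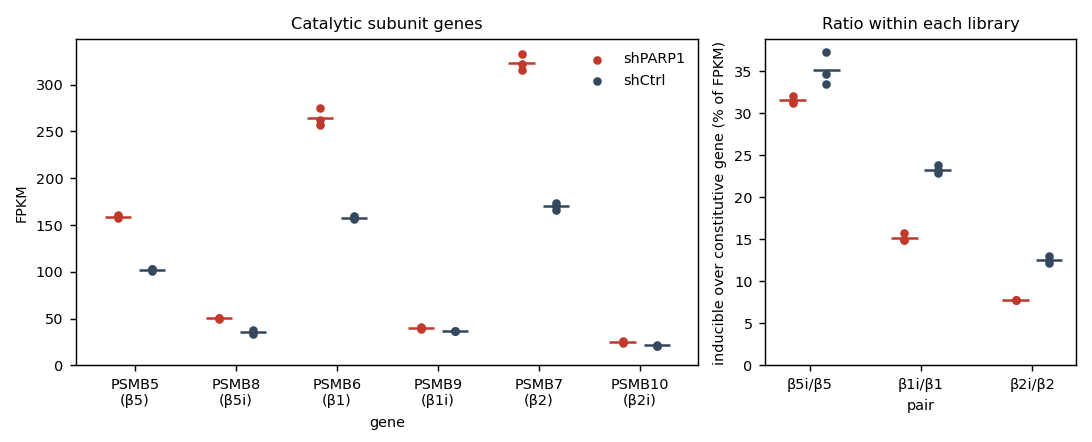
Left, FPKM of the 3 constitutive catalytic genes and of their inducible counterparts, with a point for each library and a line at the group mean, shPARP1 in red and shCtrl in dark blue. Right, the inducible gene as % of the constitutive gene within each library; all 3 shares are lower in shPARP1, with PSMB9 over PSMB6 at 15.2% in shPARP1 and 23.3% in shCtrl.

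PSMB8 and PSMB9 overlap by 139 exon bases on opposite strands of the MHC region on chromosome 6, where PSMB9 shares its promoter with the peptide transporter gene TAP1. TAP1 fell, with 67.7, 64.3 and 64.9 CPM in shPARP1 libraries, against 83.5, 91.8 and 86.1 CPM in shCtrl libraries (log2 fold change -0.41). IRF1, an interferon-induced factor that can switch on immunoproteasome genes, at 70.1 ± 2.99 CPM in shPARP1 and 70.3 ± 3.83 CPM in shCtrl, was not called.

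Among assembly chaperones the picture was mixed within each family. The 20S chaperones PAC1 to PAC4 guide the alpha ring. PSMG4 (PAC4) had 28.4, 27.5 and 26.4 CPM in shPARP1 libraries, against 13.95, 16.0 and 14.3 CPM in shCtrl libraries, a log2 fold change of 0.89 (SE 0.08). It shares 13.3% of its exon bases with SLC22A23 and 1.7% with TUBB2B, both on the opposite strand. Summed over all libraries, SLC22A23 had 109 counts and TUBB2B had 12554. Its partner PSMG3 (PAC3) rose by 0.49, and PSMG1 (PAC1) by 0.64. PSMG2 (PAC2), the partner of PAC1, had 14.9, 15.9 and 15.1 CPM in shPARP1 libraries, against 15.7, 15.7 and 15.9 CPM in shCtrl libraries. Its groups overlapped, and it was not called (log2 fold change -0.05, SE 0.08, edgeR adjusted p = 0.669). Of the base chaperones, PSMD9 (p27) rose by 0.60 and PSMD10 (gankyrin) by 0.47. PSMD5 (S5b) had 21.8, 22.6 and 24.7 CPM in shPARP1 libraries, against 20.6, 23.4 and 20.8 CPM in shCtrl libraries, with overlapping groups and no call (0.09, SE 0.08, edgeR adjusted p = 0.320). For PSMD5, PSMG2 and PSMA6, the main test and all 20 alternatives gave no call.

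Activators cap the core in place of the 19S particle. PSME2 (PA28 beta, 0.51) and PSME1 (PA28 alpha, 0.24), which encode chains of the same interferon-induced ring and lie 4394 bases apart on chromosome 14, both rose. The difference between them was not tested. PSME1 had 165 ± 2.23 CPM in shPARP1 and 139.7 ± 2.92 CPM in shCtrl, and PSME2 had 175 ± 3.75 CPM in shPARP1 and 123 ± 1.86 CPM in shCtrl (SD, n = 3 each). PSME4 (PA200, 0.54) and PSMF1 (PI31, a regulator that binds the core, 0.54) rose, and the nuclear PSME3 (PA28 gamma) rose least of all called rows, by 0.15. Against a 1.2-fold minimum neither PSME3 nor PSME1 (edgeR adjusted p = 0.735) was called. PSMC3IP, the row without a proteasome role, had 14.1, 14.5 and 14.8 CPM in shPARP1 libraries, against 13.2, 14.03 and 12.7 CPM in shCtrl libraries. Its ranges lay just apart and it was not called (0.12, SE 0.09, edgeR adjusted p = 0.262). It shares 29.9% of its exon bases with MLX on the opposite strand. PSMC3IP (adjusted p = 0.0474) and PSMB9 (adjusted p = 0.0126) were called with limma on log2(FPKM + 1).

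Levels per length differed widely between subunits that enter the particle in equal copies. They rest on the gene lengths behind the authors' FPKM, which are not stated. By CPM, which use no length, PSMB2 had 412 in shPARP1 and 306 in shCtrl, and PSMB4 had 461 in shPARP1 and 267 in shCtrl. The sizes of the spans and the order below are therefore those of FPKM. Mean CPM also differed widely in the lid and among the ATPases. In the lid they ran from 23.6 for PSMD12 to 433 for PSMD3 in shPARP1, and from 19.8 to 332 in shCtrl. ATPase genes ran from 16.3 for PSMC6 to 228 for PSMC3 in shPARP1, and from 10.8 for PSMC6 to 115 for PSMC5 in shCtrl. Within the constitutive beta ring, FPKM ran from 76.2 for PSMB2 to 428 for PSMB4 in shPARP1, and from 54.8 for PSMB2 to 240.2 for PSMB4 in shCtrl, a span of 5.62-fold in shPARP1 and 4.38-fold in shCtrl. Among the ATPases it ran from 6.69 for PSMC6 to 129 for PSMC3 in shPARP1, and from 4.29 for PSMC6 to 54.1 for PSMC3 in shCtrl. PSMC3 stood at 129 ± 0.959 FPKM and PSMC4 at 103 ± 1.21 FPKM in shPARP1, a gap beyond their spread. In shCtrl PSMC3 stood at 54.1 ± 0.608 FPKM and PSMC4 at 53.7 ± 1.94 FPKM, a gap within it (SD, n = 3 each). In the lid it ran from 4.80 for PSMD12 to 179.7 for PSMD3 in shPARP1, and from 3.91 for PSMD12 to 133 for PSMD3 in shCtrl. In both groups the beta genes PSMB4, PSMB3 and PSMB7 and the alpha gene PSMA7 were the 4 highest rows by FPKM.

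**Figure D5:**
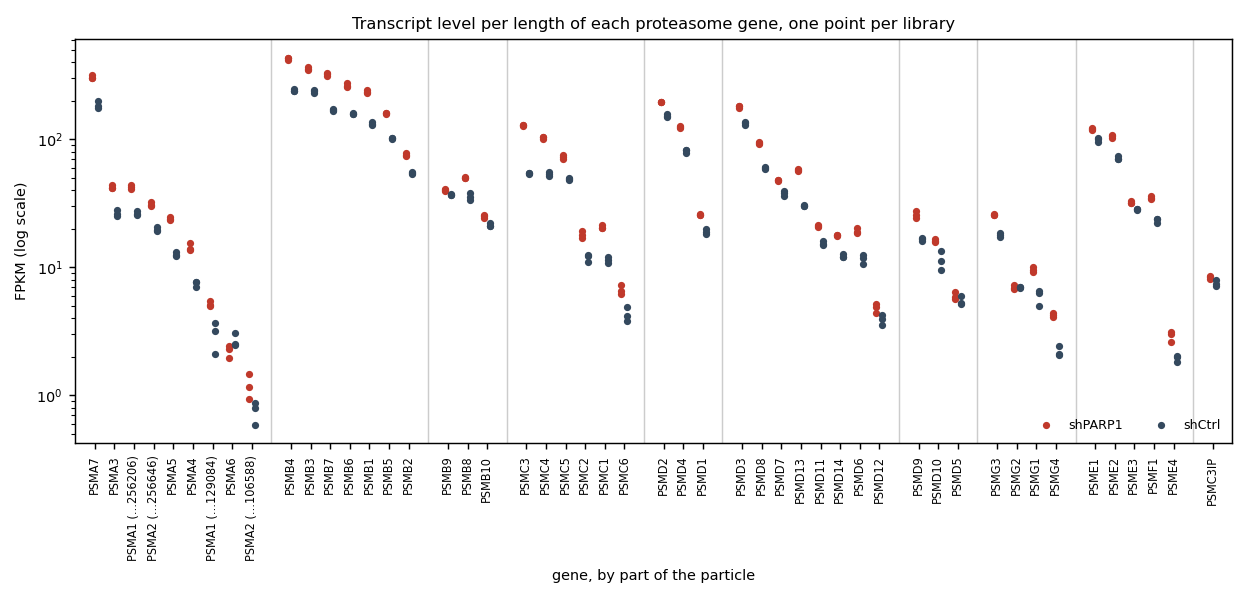
FPKM on a log axis for each row except PSMB11, with a point for each library, shPARP1 in red on the left and shCtrl in dark blue on the right of each gene; vertical lines separate the parts of the particle and digits in parentheses end the Ensembl identifier. The beta ring genes sit highest, up to 428 FPKM for PSMB4 in shPARP1 and 240.2 FPKM in shCtrl, and PSMA6 lies near the bottom of the alpha ring.

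Parts and partners of the proteasome that carry other names were divided. Of 12 such genes, 7 rose and 2 fell, with a median log2 fold change of 0.24, beside 27.3% of all genes called higher and 28.5% lower. The lid subunit SEM1 (SHFM1 in the table) had 63.1, 59.3 and 67.8 CPM in shPARP1 libraries, against 33.5, 38.5 and 32.9 CPM in shCtrl libraries (0.86). POMP, the chaperone that completes the core, had 62.3, 57.7 and 59.8 CPM in shPARP1 libraries, against 33.2, 33.7 and 34.9 CPM in shCtrl libraries (0.82). The ubiquitin receptor ADRM1 (RPN13) had 408, 387 and 369 CPM in shPARP1 libraries, against 238, 243 and 235 CPM in shCtrl libraries (0.70). Each of these 3 genes was higher in every shPARP1 library than in any shCtrl library. The ubiquitin ligase UBE3C, a loosely bound partner, fell, with 23.8, 26.2 and 24.5 CPM in shPARP1 libraries, against 52.9, 52.6 and 48.4 CPM in shCtrl libraries (-1.05). The adaptor ECM29 (KIAA0368 in the table, -0.40) also fell, while the bound deubiquitinase USP14 (0.23) and the bound thioredoxin-like TXNL1 (0.28) rose.

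Upstream of the proteasome, the ubiquitin genes UBB (0.29) and RPS27A (0.49) rose, although UBB was not called against a 1.2-fold minimum (edgeR adjusted p = 0.177). The activating enzymes UBA1 (-0.08) and UBA6 (-0.20) were called lower, but neither was with library totals only, on FPKM, against the 1.2-fold minimum, with the length and GC offset, or on leaving out shPARP1 replicate 2 or shPARP1 replicate 3. RPS27A also encodes a ribosomal protein, and pseudogenes of ubiquitin genes can share their reads. Shuttle receptors and p97 with its cofactors showed 6 rises and 2 falls among 11 genes, with a median of 0.11, beside the same 27.3% higher and 28.5% lower over all genes. The p97 cofactors UFD1 (UFD1L in the table, 0.73) and NSFL1C (0.54) rose and FAF2 (-0.58) fell. The COP9 signalosome, a complex related to the lid, rose for 7 of 9 genes, against 27.3% of all genes, with a median of 0.24. Among them were COPS8 (0.69), COPS6 (0.42), COPS7A (0.37) and GPS1 (0.18), the last not called against a 1.2-fold minimum.

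Among 10 genes listed as regulators of proteasome transcription, IRF1 and TAP1 among them, 3 rose and 3 fell, shares close to the 27.3% and 28.5% over all genes. NFE2L1 had 457, 470.3 and 466 CPM in shPARP1 libraries, against 343, 330.1 and 334 CPM in shCtrl libraries, a called rise (0.47, SE 0.03). DDI2, the protease that activates NRF1, rose by 0.48 on the log2 scale, and the small partner MAFF by 0.93. NGLY1, which removes sugars from NRF1, was not called (0.22, edgeR adjusted p = 0.123), nor were MAFG (0.07) and MAFK (0.11). The related factor NFE2L2 fell by 0.49 on the log2 scale. How the proteasome genes depend on these factors was not tested.

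Promoters of 42 of the 48 symbols were matched in RefSeq (GRCh38.p14), from 250 bases before to 50 bases after the first listed start. The antioxidant response motif, searched as TGACNNNGC on both strands, is the kind of site that NRF1 and NRF2 bind. It stood in 13 of the 42 promoters (31.0%), in 13.6% of 27305 promoters overall and in 15.2% of 10389 promoters of genes tested here. The CCAAT box (CCAAT, both strands) stood in 47.6% of member promoters, 35.7% overall and 36.3% of those of tested genes. The ETS-type motif CCGGAAG stood in 31.0% of member promoters, 10.7% overall and 18.6% of those of tested genes, and the GC box GGGCGG in 66.7%, 44.6% and 70.5%, both strands for each. The GC box and the ETS motif consist mostly of G and C, and the part of base composition in these shares was not tested. These matches are letters in a window and not binding sites.

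Rises were called both with and without the response motif, and the difference was not tested. Of the 13 with it, 10 were called higher, with a median log2 fold change of 0.39, and of the 28 tested members without it 26 were called, with a median of 0.57. The matches within 110 bases upstream of a start are shown, read in the direction of the motif, with the motif in capitals and up to 10 bases on each side. They belong to PSMB3 (chr17:38752627-38752655, plus strand, 104 bases before the start), PSMD3 (chr17:39980760-39980788, plus strand, 37 bases before), PSMD9 (chr12:121888678-121888706, plus strand, 102 bases before), PSME1 (chr14:24136098-24136126, plus strand, 86 bases before), PSME4 (chr2:53971009-53971037, plus strand, 34 bases before) and PSMG2 (chr18:12658689-12658717, plus strand, 39 bases before).
PSMB3: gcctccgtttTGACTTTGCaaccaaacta
PSMD3: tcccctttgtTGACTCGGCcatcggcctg
PSMD9: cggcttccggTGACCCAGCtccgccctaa
PSME1: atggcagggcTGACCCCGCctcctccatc
PSME4: gctctgctggTGACGCTGCagccgccggg
PSMG2: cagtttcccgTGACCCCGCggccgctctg
PSME4 is transcribed from the minus strand, so its motif lies opposite to the gene. Of the genes shown here, PSMG2 was not called and the others were called higher. PSMC3 has no match in its window. Whether the motif bears on any of these fold changes was not tested.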

How the data were processed

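The authors deposited raw read counts per gene and FPKM values for the same 6 libraries. Per the submitters' processing notes, reads were aligned to GRCh38 with tools that included bcl2fastq, TopHat2 and edgeR; tool versions, the counter, its strand setting and the annotation were not stated, and reads of overlapping or near-identical genes may have been split or dropped. Per the labels' protocols the libraries were poly(A)-selected and stranded. Here, counts were filtered with filterByExpr (16040 genes), scaled with TMM and tested with the robust quasi-likelihood F test of edgeR 4.0.16 in R 4.3.3, with Benjamini-Hochberg adjustment over all 16040 genes and a threshold of 0.05. Standard errors are the log2 fold change over the root of F. The FPKM, rounded by the authors to 2 decimals, were used for levels. Alternatives used limma 3.58.1, DESeq2 1.42.0, other factors and filters, and splines on exon length and GC content, which 99.2% of tested genes had. Exon lengths and coordinates came from GENCODE release 29, which held 97.4% of the identifiers.

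Members and lists were chosen with earlier results of these data known. Values were given library by library for PARP1, the 6 catalytic beta genes, the 5 largest called rises among members averaging 5 CPM or more whose groups did not overlap, and members that failed the filter; up to 4 called genes were taken per other list by smallest p. Other genes were named after their values were seen, and some listed genes are not reported here. Within a group, libraries differed by more than counting noise (chi-square over its degrees of freedom 2.44 to 4.35), so none was merged as the same library deposited again; this does not show separate cultures.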

Additional observations from a re-analysis of the deposited data

How the results depend on the processing

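The count of members called higher lay between 37 and 46 of 49 or 50 tested under the 20 alternatives, and 0 were called lower under any. The lowest, 37, came from the 1.2-fold minimum, which also took the counts over all genes to 2529 higher and 2882 lower. Leaving out each library gave 41 to 44 members called higher, and 4024 to 4349 higher and 4196 to 4416 lower genes overall. The median log2 fold change of the members was 0.58 with library totals only and 0.59 on log2(FPKM + 0.1), against 0.55, and 0.53 to 0.58 with a library left out; the cause was not tested. No member changed direction with a call. In 37 members the call held under every alternative. The shared replicate numbers were not shown to pair the libraries, with correlations of deviations of 0.13, -0.04 and 0.15 for same-numbered libraries, and the replicate block gave 44 members called higher and a median of 0.55. The length and GC offset together with the replicate block, added after seeing the data, gave 43. PSMB11 entered the test only without the filter on low counts and was not called there. PSMA2 (ENSG00000106588), near 2 CPM, had few counts and an SE of 0.25.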
